A study of Mus musculus with 8 samples.

Results

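The genes described here encode the proteins of the cytosolic ribosome. They were chosen by symbol (Rpl, Rps and Rplp names, and Rpsa, without the S6 kinases and without pseudogenes named -ps) and by a mean of at least 10 normalized counts over the 8 samples, which gave 87 of the 22829 genes listed; 16982 genes reached that mean and were tested. By the GENCODE M21 annotation, 46 of the 87 encode large-subunit proteins, 31 encode small-subunit proteins, 4 are protein-coding copies (Rpl7l1, Rpl22l1, Rpl39l and Rps27l) and 6 are annotated as processed pseudogenes (Rps12l1, Rpl32l, Rps4l, Rps3a2, Rps3a3 and Rpl6l). Of 80 standard ribosomal proteins, 77 were represented, and the others, such as Fau and Rack1, fall outside the symbol rule. The lowest member was Rps12l1, with a mean of 14.8 normalized counts. One further symbol, Rpl3l, had a mean of 3.68 and was left out.

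RNA seq was performed on Th17 cultures made from CD4+ T cells of ROR-γt-/- mice. The cells of all 8 samples lacked endogenous ROR-γt and were transduced with lentivirus, which carried WT-ROR-γt in 4 samples (WT) and K187R-ROR-γt, the SUMOylation-defective form, in the other 4 (K187R). The question put to these genes is whether the message of the protein synthesis machinery differed between the 2 forms. The series' design text speaks of WT and mutant mice whereas the labels describe reconstituted cells, no mouse age is given, and no source used here says whether the samples came from separate mice or cultures or whether the cells were restimulated before lysis. The p-values therefore measure only the spread between these samples, which may be technical.

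A ribosome consists of a small subunit, which reads the message, and a large subunit, which forms the peptide bond. Each subunit is built from ribosomal RNA and many small proteins, most of which are encoded by single active genes with numerous processed pseudogenes. Ribosomal protein messages usually begin with a run of pyrimidines, the 5′ terminal oligopyrimidine tract, through which mTOR signalling and LARP1 control their translation, and activated T cells make large amounts of them as they grow and divide.

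Reads per sample ranged from 52456804 to 74676721, of which between 3352817 and 5360066 fell on the 87 genes. Summed T cell markers were 86940 to 97990 in WT and 88870 to 103900 in K187R, and summed Th17 markers were 30380 to 48450 and 40310 to 53730. The samples numbered 4 stood apart in both groups, with the lowest summed B cell markers (300.6 and 356.5 against 997.9 to 1596 in the other 6 samples), the highest CD8 T cell markers (1025 and 1141 against 387.2 to 555.6) and the lowest proliferation markers (61720 and 65940 against 90300 to 131500). Myeloid markers summed to 20130, 48920, 20250 and 59360 in WT and to 34430, 42630, 46170 and 62440 in K187R. These sums, too, were highest in the samples numbered 4, but in each of them only 3 of the 5 myeloid genes were above their own mean. The erythroid markers summed to at most 61.4, and Hbb-bs was listed at 0 in 4 samples. In bulk samples, fewer cells of a type and less RNA per cell cannot be told apart.

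Ribosomal protein messages were among the most abundant in these cells. Per kilobase of annotated exon, the 77 genes with 1 gene per ribosomal protein had means from 1783 (Rpl13a) to 124300 (Rps3a1) normalized counts, with a median of 22990, against a median of 252.7 over the 16958 tested genes with a length. Of the 81 protein-coding members, 47 were among the 100 highest genes on this scale and 67 among the 200 highest. The highest were Rps3a1 of the small subunit, Rplp1 of the large-subunit stalk (115820 per kilobase), Rps15 (113290), Rplp0, the stalk base (101230), Rpl4 (96227) and Rps4x (87254), followed by Rps27, Rpl8 and Rpl32. Their order rests on annotated exon length. Of the lowest members, Rpl13a has 35.4% of its exon bases and Rpl24 (2374 per kilobase) 47.0% also annotated to another gene, as are 66.2% of those of Rpl35 at 26618 per kilobase, and the part of overlap in these levels was not tested.

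The 87 genes together took a smaller mean share of all normalized counts in K187R than in WT, but the groups overlapped. The share was 6.97%, 7.18%, 7.18% and 6.57% in WT replicates 1 to 4, and 6.59%, 5.97%, 6.30% and 7.09% in K187R replicates 1 to 4. With n = 4 in each group, WT averaged 6.97% ± 0.29 and K187R 6.49% ± 0.47 (SD), which differ by -0.485 percentage points. WT replicate 4 lay below K187R replicates 1 and 4, and K187R replicate 4 lay above WT replicates 1 and 4. Both subunits had their lowest share in K187R replicate 2: the large subunit took 3.67% ± 0.14 in WT and 3.43% ± 0.25 in K187R, the small subunit 3.26% ± 0.16 and 3.02% ± 0.23 (SD, n = 4 each). The ratio of large to small subunit counts stayed between 1.10 and 1.16 in all 8 samples, with means of 1.13 in WT and 1.14 in K187R.

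**Figure D1:**
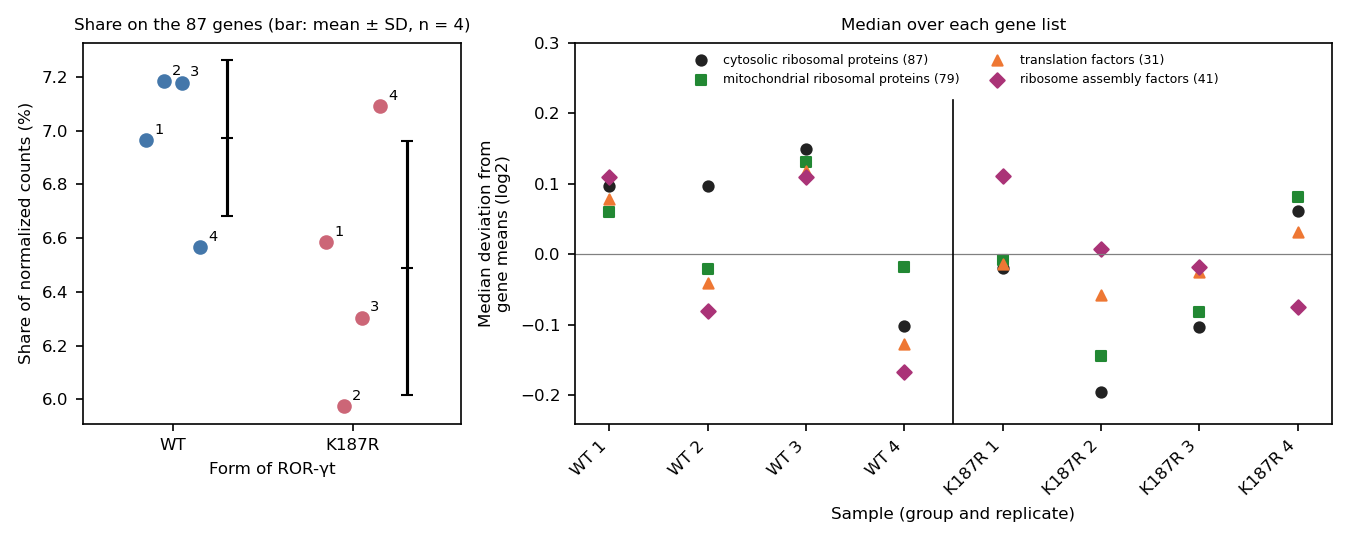
Left, share of all normalized counts (%) on the 87 ribosomal protein genes in each sample, numbered by replicate, with the mean ± SD of 4 samples, and right, the median deviation (log2) of 4 gene lists from each gene's mean over the 8 samples. The shares run from 5.97% in K187R replicate 2 to 7.18% in WT replicates 2 and 3, WT replicate 4 is the lowest of its group, and K187R replicate 4 is the highest of its group.

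Gene by gene, the mean was lower in K187R for 86 of the 87 members (98.9%), whereas 51.6% of all genes tested had a lower mean. The median log2 difference, K187R minus WT on the log2(normalized count + 1) scale, was -0.13 over the members and -0.0062 over all genes tested. It ranged from -0.55 (Rps12l1, the lowest member) to 0.074 (Rps4l, the only member with a higher mean, which was lower under quantile normalization, without the samples numbered 4, without WT replicate 1 and without K187R replicate 4). Among the 81 protein-coding members the range was -0.34 (Rpl22l1) to -0.0004 (Rpl29). All 46 large-subunit genes (median -0.11) and all 31 small-subunit genes (median -0.13) had lower means in K187R. With the other normalizations tried, 82 to 86 members were lower and the median lay between -0.15 and -0.11.

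No member passed the test. With limma and Benjamini-Hochberg adjustment over all genes tested, 0 of 87 had an adjusted p under 0.05, and the same held for the whole table (background 0.0%). At an unadjusted p under 0.05, limma counted 4 members lower in K187R and 0 higher, beside 1.64% of all genes tested that were lower and 2.75% that were higher. In the same direction edgeR counted 2 members (background 1.65%) and DESeq2 counted 6 (background 2.13%). No member had groups that did not overlap, where 0.989% of all genes had every K187R sample below every WT sample. The smallest exact permutation p of a member was 0.0571 (Rps18, two-sided), and the smallest that 4 against 4 samples allow is 0.0286. The members are co-expressed and their differences are not independent of each other, so the count of lower means is a description of these 8 samples.

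**Figure D2:**
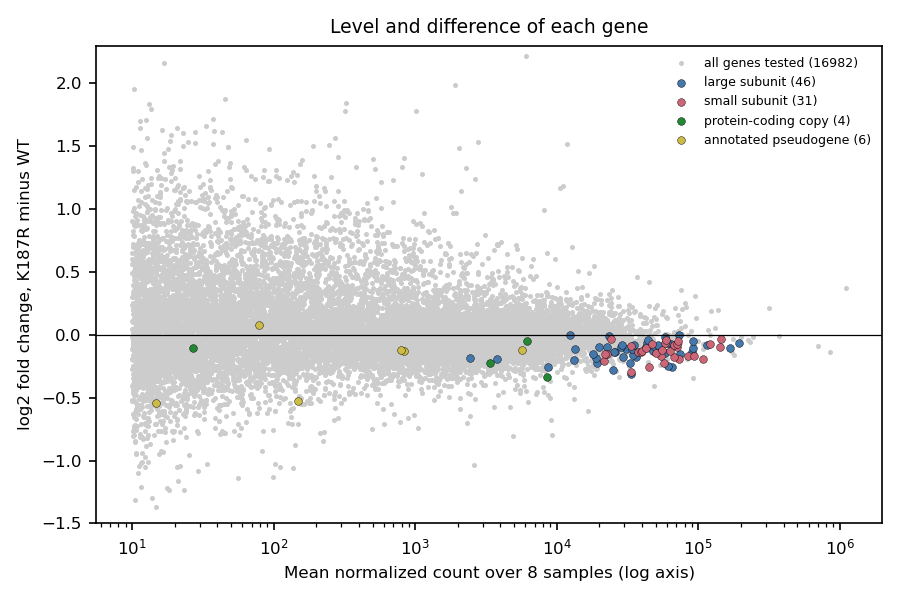
Mean normalized count over the 8 samples (log axis) against the log2 difference, K187R minus WT, for all 16982 genes tested (grey) and the 87 ribosomal protein genes (coloured by class). The 81 protein-coding members form a narrow band between -0.34 and -0.0004, while genes of lower level spread further in both directions.

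The genes with the smallest p-values came from both subunits. Rps27a (chr11:29545846-29548109, minus strand, GRCm38), which encodes a small-subunit protein fused to ubiquitin, was at 40243, 38604, 39383 and 29731 normalized counts in WT and 31385, 26620, 28953 and 33243 in K187R. WT replicates 1 to 3 lay above every K187R sample and WT replicate 4 lay among them. The log2 difference was -0.29 (SE 0.113, limma unadjusted p = 0.0279, adjusted p = 0.921). Rpl32 (chr6:115805505-115808747, minus strand), a large-subunit protein, was at 74565, 71883, 78541 and 59419 in WT and 61375, 51994, 55849 and 68240 in K187R, with a log2 difference of -0.26 (SE 0.114, limma adjusted p = 0.921). Rpl34 (chr3:130726831-130730398, minus strand), also of the large subunit, was at 20937, 21689, 21429 and 18243 in WT and 19390, 15204, 17072 and 19128 in K187R (log2 difference -0.22, SE 0.0962, limma adjusted p = 0.921). In both genes, too, it was WT replicate 4 alone that fell into the K187R range. Rpl39 (chrX:37082520-37085402, minus strand), which lines the exit tunnel for the growing peptide, was at 27705, 29536, 28278 and 22933 in WT and 26046, 18284, 21661 and 23849 in K187R (log2 difference -0.28, SE 0.121, limma adjusted p = 0.921). Here again the 3 other WT samples were above all of K187R.

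In 2 small-subunit genes it was the K187R group that had 1 sample out of line. Rps18 was at 77770, 78960, 82691 and 71544 in WT and 69591, 61243, 65126 and 77355 in K187R, and Rps12 at 22178, 21952, 25398 and 22631 in WT and 18774, 18153, 19250 and 23800 in K187R. K187R replicates 1 to 3 lay below every WT sample in both genes, and K187R replicate 4 did not. The log2 differences were -0.19 (SE 0.0902) and -0.21 (SE 0.0968), and neither passed the test.

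The stalk proteins, which recruit elongation factors to the ribosome, showed another order of samples. Rplp1 was at 54404, 55321, 64357 and 67599 in WT and 55483, 42682, 57169 and 65340 in K187R. Its highest value was that of WT replicate 4, the sample that was lowest of its group in the genes above, except for Rps12. Rplp2 was at 30363, 30911, 32796 and 33451 in WT and 31077, 24544, 30313 and 32848 in K187R, and Rplp0 at 163190, 168220, 187100 and 176120 in WT and 159300, 139550, 164730 and 185290 in K187R. K187R replicate 2 was the lowest sample for all 3 stalk genes, and their log2 differences lay between -0.14 and -0.10 with standard errors of 0.0956 to 0.134.

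Rpl5 and Rpl11, which form a particle with 5S ribosomal RNA and can bind the p53 ligase Mdm2, had overlapping groups. Rpl5 was at 100630, 107020, 95117 and 76192 in WT and 85095, 85562, 78766 and 92589 in K187R (log2 difference -0.14, SE 0.112), and Rpl11 at 35017, 33493, 39775 and 32442 in WT and 32493, 28670, 33421 and 35864 in K187R (log2 difference -0.11, SE 0.0929). The lowest Rpl5 value was that of WT replicate 4 and the lowest Rpl11 value that of K187R replicate 2. Rps6, the substrate of S6 kinase, had a mean of 59861 ± 4977 in WT and 58114 ± 3054 in K187R, and Rpsa, which is also known as a laminin receptor, 147370 ± 8211 and 143920 ± 4369 (SD, n = 4 each). Their log2 differences of -0.040 (SE 0.0822) and -0.033 (SE 0.076) were less than their standard errors. Of the remaining members with a known particular role, Rps19, which is mutated in Diamond-Blackfan anaemia, had a log2 difference of -0.14 (SE 0.0866), Rps3, also a DNA repair factor, -0.17 (SE 0.11), Rpl13a, part of a translational silencing complex, -0.19 (SE 0.0943), Rpl10, which completes the large subunit, -0.10 (SE 0.101), Rpl3, near the peptidyl transferase centre, -0.11 (SE 0.0891), and Rpl4, at the exit tunnel, -0.067 (SE 0.085). Rps6 and Rpl4 had higher values in K187R under quantile normalization, by 0.023 and 0.043.

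**Figure D3:**
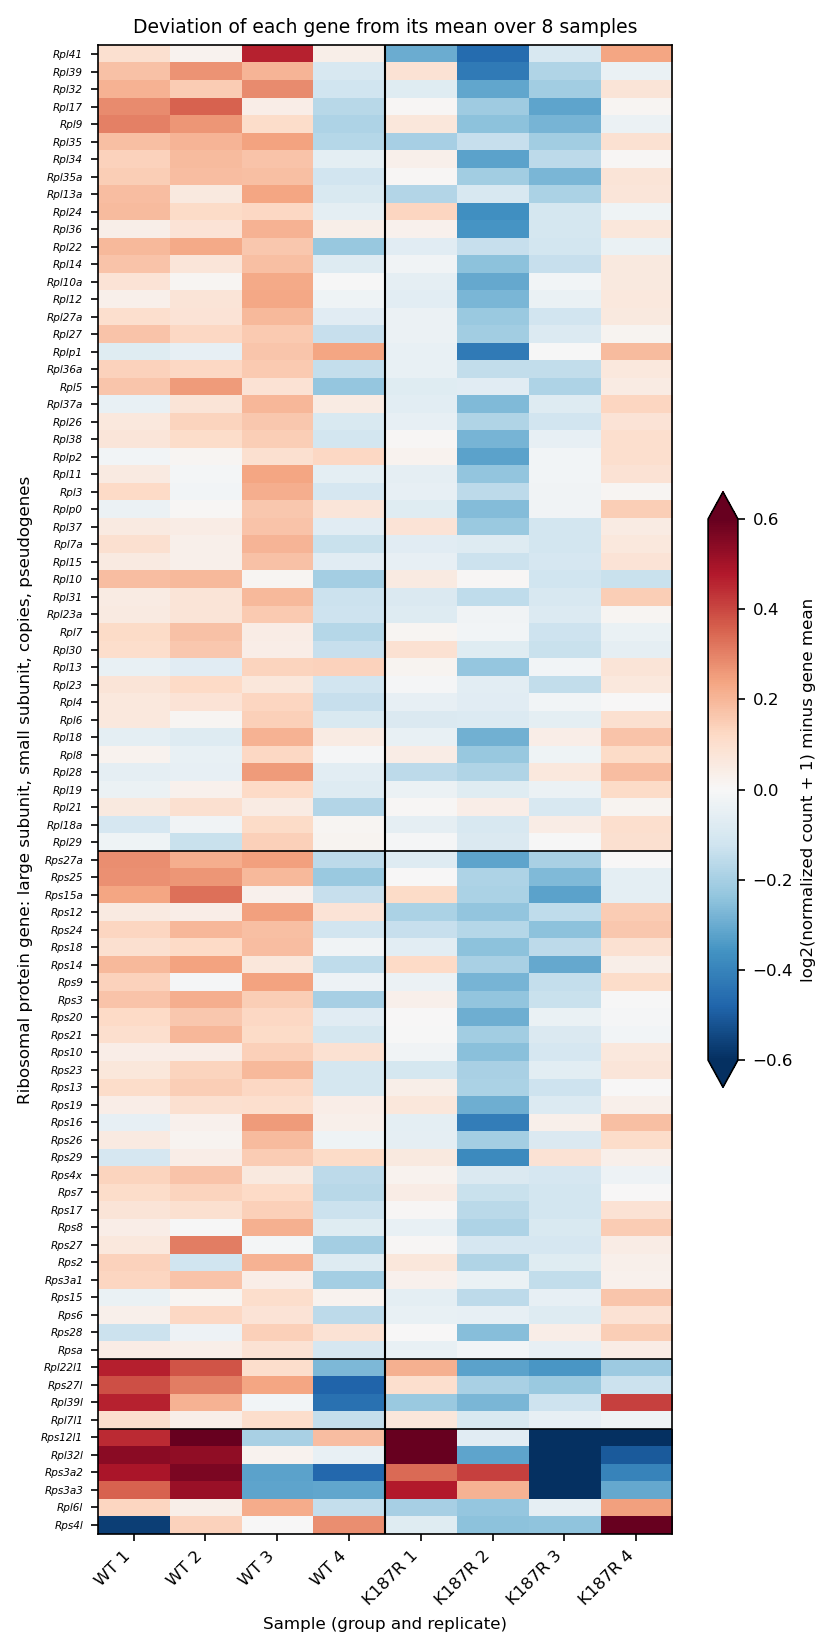
Deviation of the ribosomal protein genes (rows, by class and then by log2 difference, with 2 of the 87 not shown) from its own mean over the 8 samples (columns), on the log2(normalized count + 1) scale, with colours clipped at ±0.6. WT replicates 1 to 3 are mostly above the gene means and K187R replicates 2 and 3 mostly below, while WT replicate 4 has 20 of 87 genes above its gene mean and K187R replicate 4 has 67.

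The members moved together from sample to sample. In WT, 72, 74, 82 and 20 of the 87 genes were above their own mean in replicates 1 to 4, and in K187R 40, 4, 6 and 67. The median deviations were 0.097, 0.097, 0.15 and -0.10 in WT and -0.020, -0.20, -0.10 and 0.061 in K187R. Principal component analysis of the 87 members put 51.9% of their variance between samples on component 1 and 31.5% on component 2. Over the 81 protein-coding members these were 67.1% and 20.1%, compared with 43.1% and 29.03% over the tested genes that were not members. The lists differ greatly in size, and the contrast was not tested. The spread of single members was small. Their SD over the 8 samples, in log2, had a median of 0.145 and ran from 0.0633 (Rpsa) to 0.619 (Rps12l1). The median was 0.221 over all genes tested, most of which were less abundant. It was 0.112 over 31 translation factors, 0.134 over 79 mitochondrial ribosomal protein genes and 0.147 over 41 ribosome assembly factors. A small spread was therefore not particular to the members.

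The difference between the groups had opposite signs in different samples. Clustering of the 8 samples on genes that were not members gave 3 sets: WT replicates 1 and 3 with K187R replicate 1, WT replicate 2 with K187R replicates 2 and 3, and WT replicate 4 with K187R replicate 4. Within the first set the median log2 difference of the members was -0.12 and 80 of 87 were lower in K187R. Within the second it was -0.25 with 86 lower. Within the third it was 0.14, with 8 lower and 79 higher. Of all genes tested, 51.1%, 48.6% and 46.3% were lower in K187R within these sets. The sets hold 2 or 3 samples each and were not tested singly.

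**Figure D4:**
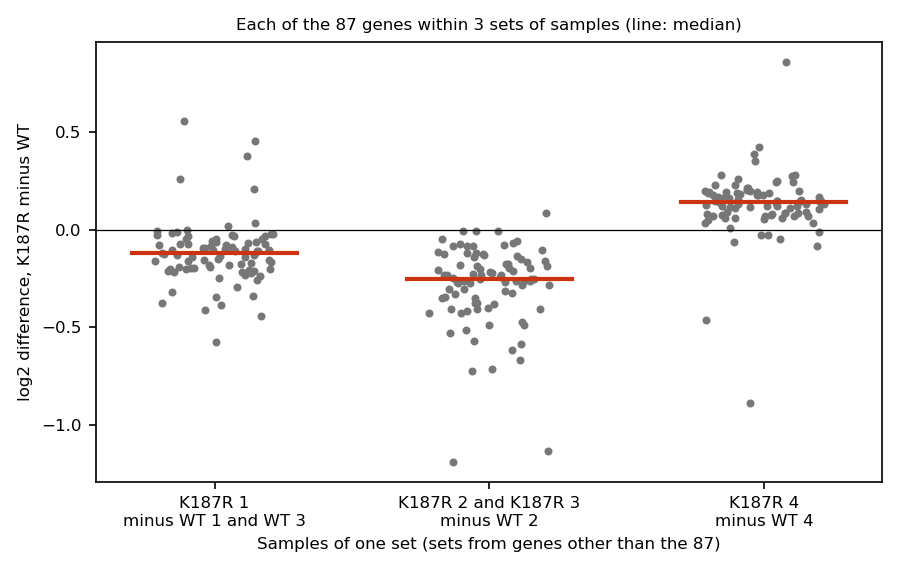
Log2 difference, K187R minus WT, of each of the 87 ribosomal protein genes (grey points) within 3 sets of samples found by clustering on genes that were not members, with the median as a red line. The medians are -0.12, -0.25 and 0.14.

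How many members came near the threshold depended on the samples kept, and the count rose most without the samples numbered 4. These samples were left out as an alternative because most members were higher in K187R between them, so the choice used the outcome itself, favours lower values in K187R, and lends the counts that follow no support. Without both, all 87 members had lower means in K187R (50.4% of all genes tested), the median log2 difference was -0.20 and the difference in share was -0.821 percentage points. In this fit 43 members reached an unadjusted p under 0.05 with limma, beside 5.89% of all genes tested that were lower, and 58 had every K187R sample below every WT sample, beside 9.61%. The smallest limma adjusted p of a member was 0.288, so no member passed the test there either (background 0.0236%). Leaving out WT replicate 4 alone gave 30 members at an unadjusted p under 0.05 with limma (background 6.68%), and leaving out K187R replicate 4 alone gave 15 (background 2.33%). Those 2 samples also had the lowest proliferation and B cell markers and the highest CD8 T cell and myeloid markers, with the sums given above. The part of these differences in the ribosomal protein result was not tested.

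Other genes of the translation apparatus were read from fixed lists. Of the ribosomal genes outside the symbol rule, Rack1, a scaffold on the small subunit, was at 104470, 106120, 118720 and 115010 in WT and 108390, 85199, 103780 and 115130 in K187R (log2 difference -0.11, SE 0.105). Fau, a ubiquitin-like fusion of a small-subunit protein, had a log2 difference of -0.054 (SE 0.116) and Rpl36al, an expressed copy of Rpl36a, -0.18 (SE 0.145). None of these 3 passed the test.

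Of 79 mitochondrial ribosomal protein genes, which serve the separate ribosome inside mitochondria, 68 had lower means in K187R (median log2 difference -0.070), and of 31 translation factors 28 did (median -0.053). The median deviations of the mitochondrial list were 0.060, -0.021, 0.13 and -0.018 in WT and -0.0085, -0.14, -0.082 and 0.081 in K187R, so K187R replicate 4 was above its gene means here as in the cytosolic list. No gene of either list passed the test, and only Eef1b2, a subunit of the elongation factor exchange complex, had an unadjusted p under 0.05 with limma (log2 difference -0.24, SE 0.103). The 41 ribosome assembly factors did not share the direction: 17 were lower and 24 higher in K187R (median 0.016), and none passed the test. Of 22 growth regulators, 15 were lower (median -0.039) and none passed. Myc, a transcription factor that drives ribosome production, was at 13043, 7807, 14994 and 9381 in WT and 11096, 9905, 10495 and 9409 in K187R (log2 difference -0.10, SE 0.185). Of 10 proliferation markers 9 had lower means (median -0.21), without passing. The differences between lists were not tested.

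The SD over the 8 samples (log2) had a median of 0.316 over the 4 copies and 0.466 over the 6 annotated pseudogenes, against 0.141 and 0.136 over the large- and small-subunit genes, although Rpl7l1 (0.0923) and Rpl6l (0.187) lay within the range of the single-gene members, which reached 0.291 (Rpl41). Their reads cannot always be told from those of other genes, so the share of 75-base windows of the annotated transcript that also occur in another gene's transcripts is given with them. Rpl22l1, a paralogue of Rpl22 with known roles in T cell development, was at 11467, 10777, 8915 and 6875 normalized counts in WT and 9614, 6649, 6507 and 7127 in K187R, and 58.6% of its windows were shared. Its partner Rpl22 (7.0% shared) was at 33183, 33901, 32428 and 24792 in WT and 27648, 26338, 26858 and 28194 in K187R. WT replicates 1 to 3 of Rpl22 were above all K187R samples and WT replicate 4 was the lowest of the 8. The log2 differences were -0.34 (SE 0.177) for Rpl22l1 and -0.18 (SE 0.102) for Rpl22.

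Rps27l, a paralogue of Rps27 known as a p53 target, was at 4342, 4110, 3911 and 2385 in WT and 3562, 2901, 2844 and 3042 in K187R, with 12.0% of windows shared. Rps27 itself shared 98.5% of its windows with Rps27rt, so the counts of those 2 genes are uncertain. Rpl39l, which is best known from the testis, was at 36.8, 30.8, 26.2 and 19.2 in WT and 22.6, 21.7, 24.2 and 35.6 in K187R, with no shared window. Replicate 4 was the lowest of WT and the highest of K187R, and the direction of the difference turned when WT replicate 1 was left out. Rpl7l1, a paralogue of Rpl7, was at 5570 to 6627 in WT and 5769 to 6457 in K187R.

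In 4 of the 6 annotated pseudogenes (Rps3a2, Rps3a3, Rpl32l and Rps12l1) replicates 1 and 2 lay above replicates 3 and 4 in WT and in K187R alike, as they did in 2 of the 46 large-subunit genes (Rpl7 and Rpl10) and in none of the 31 small-subunit genes. Rps3a2 was at 1117, 1179, 637 and 573 in WT and 1009, 1059, 520 and 603 in K187R, and Rps3a3 at 972, 1089, 611 and 612 in WT and 1059, 880, 493 and 615 in K187R. Rps3a1, with which Rps3a2 shares 65.5% of its windows, was at 132370, 136460, 124410 and 105170 in WT and 123090, 117620, 109140 and 123250 in K187R, which shows this order in WT but not in K187R. Rpl32l was at 203.2, 201.9, 141.2 and 135.1 in WT and 220.3, 111.7, 74.8 and 97.8 in K187R. Rps12l1, all of whose windows occur in other genes, was at 19.0, 22.1, 11.8 and 15.7 in WT and 22.6, 13.0, 6.3 and 8.0 in K187R. Rpl6l was at 5073 to 6521 in WT and 4759 to 6644 in K187R, and Rps4l at 51.1, 83.6, 76.1 and 92.4 in WT and 72.3, 64.0, 64.3 and 124.5 in K187R. None of the 10 copies and pseudogenes passed the test.

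**Figure D5:**
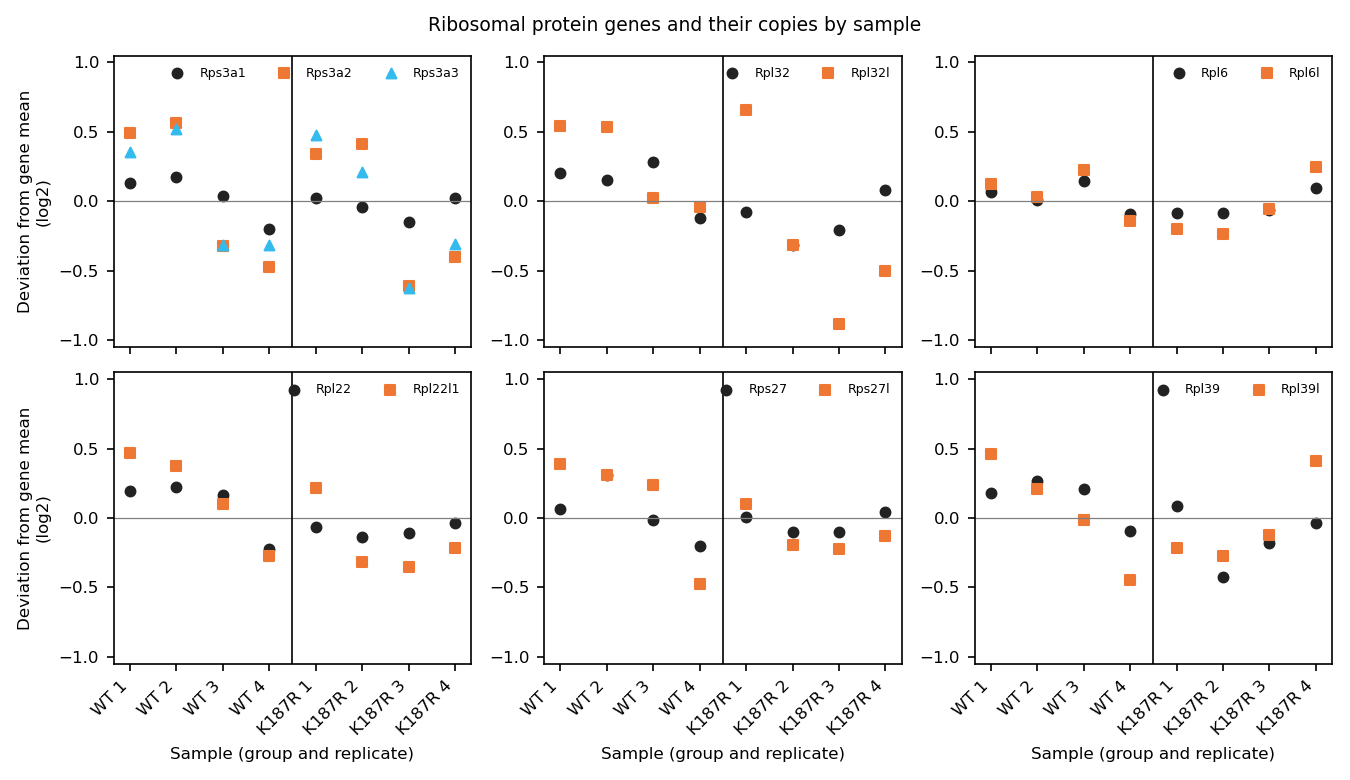
Deviation (log2) of 6 ribosomal protein genes (black) and their copies or annotated pseudogenes (coloured) from each gene's mean over the 8 samples. Rps3a2 and Rps3a3 are high in replicates 1 and 2 and low in replicates 3 and 4 of both groups, and Rpl22l1 and Rps27l spread further than Rpl22 and Rps27.

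Shared sequence was common among the single-gene members too. The median share of 75-base windows found in another gene's transcripts was 47.95% over the 77 genes, 38 had over 50%, and 2 had none, Rps3 among them. Across the 81 protein-coding members, the log2 difference had a Spearman correlation of -0.011 with this share, of 0.25 with transcript length and of 0.27 with the mean normalized count. With the SD over the 8 samples the correlation was -0.81, but that SD itself includes the difference between the groups. These are correlations across genes, which are not independent replicates, and the points share all 8 libraries.

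The start sites are shown because the run of pyrimidines there is the sequence feature that ribosomal protein messages are known for. RefSeq start windows (GRCm38.p6) matched 62 of the 87 genes, with 73 windows. A run of at least 8 pyrimidines (C or T, on the gene's strand) lay within 20 bases of the start in 43.8% of them and in 16.0% of the 32851 windows of all genes. The letters CCGGAAG, a core of sites for ETS family factors, searched on both strands of the 300 bases around the start, were in 37.0% and 8.86%. The printed starts were chosen among protein-coding members with 1 RefSeq window. Members on the chromosome of Rpl17 (log2 difference -0.26) were left out of this choice whatever their number of windows. Of those remaining, the 30 bases around the start follow for the 4 with the lowest and then the 4 with the highest log2 difference. They read 5′ to 3′ on the gene's strand, with the longest pyrimidine run of the printed bases in capitals, and lie at chr3:28805493-28805522 (plus strand), chr10:128549154-128549183 (minus), chrX:37085208-37085237 (minus), chr9:44407699-44407728 (plus), chr7:4792950-4792979 (plus), chr4:86857353-86857382 (minus), chr17:33824548-33824577 (minus) and chr9:120127751-120127780 (plus).
Rpl22l1: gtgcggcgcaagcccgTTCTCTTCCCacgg
Rpl41: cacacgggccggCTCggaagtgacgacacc
Rpl39: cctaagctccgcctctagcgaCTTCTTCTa
Rps25: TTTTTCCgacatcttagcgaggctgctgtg
Rpl28: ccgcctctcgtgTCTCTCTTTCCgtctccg
Rps6: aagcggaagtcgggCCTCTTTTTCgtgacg
Rps28: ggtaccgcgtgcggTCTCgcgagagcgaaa
Rpsa: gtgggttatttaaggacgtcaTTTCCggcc

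Long runs and short runs occurred at both ends of this order of the printed genes. Rpl22l1 (log2 difference -0.34) and Rpl39 (-0.28) had runs of 10 and 8 bases, as did Rpl28 (-0.046) and Rps6 (-0.040) with 11 and 10, while Rpl41 (-0.31) had 3 and Rps28 (-0.035) had 4. Rps25 (-0.25) had a run of 7 in the printed bases and of 12 within 20 bases of the start, and Rpsa (-0.033) had 5. Over all matched members, the median log2 difference was -0.16 for the 31 genes with a run of at least 8 pyrimidines and -0.13 for the 31 without. It was -0.11 for the 26 genes with the CCGGAAG letters and -0.14 for the 36 without. The difference between these groups of genes was not tested. A match is a description of the letters in the window.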

How the data were processed

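RNA seq was performed on 8 samples of Th17 cells, 4 reconstituted with WT-ROR-γt and 4 with K187R-ROR-γt. According to the study's methods, poly-A libraries (a KAPA kit, whereas the labels name another) were sequenced as read pairs, trimmed with Cutadapt, aligned to GRCm38 with HISAT2 and counted with featureCounts on GENCODE M15. Strand setting, treatment of multiply mapped reads and tool versions are not given in the sources used here. The deposited table holds, as a signal for each gene, reads over a size factor set by the authors for each sample (DESeq2). Dividing by what 1 read was worth gave whole reads for 100.0% of values (tolerance 0.01). Lower counts have a wider relative error, and 3 reads correspond to 2.54 to 3.56 normalized counts.

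Because the deposited values are not counts, log2(normalized count + 1) was tested with limma 3.58.1 (eBayes with a trend, all 8 samples, no covariate) over genes with a mean of at least 10, with Benjamini-Hochberg adjustment over all of them and a threshold of 0.05. Single genes were also compared by an exact two-sided permutation test. edgeR 4.0.16 (quasi-likelihood) and DESeq2 1.42.0 were run on the recovered reads, with other pseudocounts, filters, normalizations, weights and sample sets as alternatives. The limma, edgeR and DESeq2 fits were run on simulated data with independently drawn genes and larger differences than those of the members. That run therefore does not show how the fits perform on small differences in co-expressed genes. The 87 genes and the lists were chosen with earlier results of these data known.

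Genes named in the text are the 10 highest per kilobase, the 5 smallest p-values in each direction, members without overlap between groups, copies with their partners, members of known particular role, the 5 largest SDs, the members nearest the minimum, and ribosomal genes outside the symbol rule. Others, such as Rps18, Rpl41, Rps25, Rpl28, Rps28, Rpl29, Eef1b2 and Myc, were chosen after their values were seen. Values of a few genes the rule names are not reported here. Annotation was GENCODE M21 on GRCm38, in which 22784 of the 22829 gene identifiers were found, and start windows were from RefSeq. R 4.3.3, Python 3.11.15, numpy 2.4.6, scipy 1.17.1 and pandas 2.3.3 were used.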

Additional observations from a re-analysis of the deposited data

Results flagged for a closer look

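In 98 groups of 4 samples examined, 7 held a sample further from the others than Dixon's critical value for 4 samples, where chance gives about 4.9. All groups come from the same 8 samples and are not independent of each other, so 7 beside 4.9 is a description and not a test. WT replicate 4 was low, in log2 normalized counts, for Rps27a (14.86 against 15.24 to 15.30 in the other WT samples), Rpl22 (14.60 against 14.99 to 15.05), Rps3 (16.29 against 16.64 to 16.71) and Rps25 (15.22 against 15.64 to 15.72). WT replicate 3 was high for Rpl41 (15.47 against 15.03 to 15.10) and Rpl28 (15.68 against 15.36 to 15.37). K187R replicate 4 was high for Rpl6 (15.98 against 15.80 to 15.82).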

How the results depend on the processing

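The number of members with an adjusted p under 0.05 was 0 in all 26 alternatives, and in all of them the median log2 difference (-0.13) shifted by less than 0.11, the SD of the members' median deviation within groups. That SD is nearly as large as the median difference, so shifts below it do not show that the median difference was stable. Leaving out 1 sample in turn moved that median between -0.17 and -0.087 and the difference in share between -0.685 and -0.313 percentage points. The count of members at an unadjusted p under 0.05, 4 in the limma fit, was 1 without a trend (background 1.71%), 37 with sample weights (background 8.13%), 1 with 3 sets of samples, clustered over the other genes, as a factor (2.37%), 2 with edgeR (1.65%) and 43 (5.89%) without the samples numbered 4, an alternative chosen after seeing the data, because these genes were higher in K187R there. Leaving out 1 sample in turn gave 0 to 30: 0 without WT replicate 1, 2 or 3 or K187R replicate 2 or 3, 9 without K187R replicate 1 (1.6%), 15 without K187R replicate 4 (2.33%) and 30 without WT replicate 4 (6.68%). The sample weights gave WT replicate 4 the lowest weight of the 8 samples (0.344), so the counts of 37 and 30 both come from fits that reduce its part. Same-numbered samples had correlated deviations of 0.59, 0.66, -0.09 and 0.63 for numbers 1 to 4. Since 1 of the 4 is not above 0.1 and no label gives a shared batch or day, the numbers were not taken as pairs, and whether they mark a batch is not known. With the replicate block limma counted 7 members (background 4.35%) and DESeq2 15 (3.99%). Over all genes, DESeq2 called 31 at an adjusted p under 0.05 and 174 with the replicate block, against 0 with limma.

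Of 1142 alternative values of 44 named genes, 1123 kept their direction and their side of the threshold and 19 changed sign. Quantile normalization gave 0.0434 for Rpl4, -0.0471 for Rps4l and 0.0231 for Rps6. Without the samples numbered 4, Rps4l was -0.0431. Leaving out 1 sample moved Rps4l between -0.15 and 0.18, Rpl39l between -0.27 and 0.0318, Rps3a2 between -0.31 and 0.0523, Rps3a3 between -0.30 and 0.0661, Rps27 between -0.16 and 0.012, Rpl28 between -0.12 and 0.0327, Rps28 between -0.0894 and 0.0441, Rpl8 between -0.0923 and 0.021, and Fau between -0.13 and 0.0468. The cause was not tested.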

Other observations

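Pseudogenes named after ribosomal protein genes (-ps) took 0.254% of normalized counts in WT and 0.237% in K187R. Of the 144 tested, 116 had lower means in K187R (80.6%, beside 51.6% of all genes tested), the median log2 difference was -0.14, and none had an adjusted p under 0.05 with limma, 2 having an unadjusted p under 0.05. Their median deviations were 0.20, 0.27, 0.0045 and -0.17 in WT and 0.13, 0.0097, -0.38 and -0.10 in K187R. Rps27rt, the near-identical copy of Rps27, was at 1861, 2275, 1117 and 1001 normalized counts in WT and 1918, 1875, 983.8 and 1107 in K187R, so that replicates 1 and 2 of both groups lay above replicates 3 and 4, as for 4 of the annotated pseudogenes, and the -ps medians above fell in that order. Genes encoded in mitochondria took 3.34% ± 0.35 of normalized counts in WT (SD, n = 4) and a mean of 3.18% in K187R.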
